A study of Macaca fascicularis with 48 samples.

Results

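The genes described here encode the subunits of ligand-gated neurotransmitter receptors, together with the metabotropic glutamate receptors, in cynomolgus monkeys (Macaca fascicularis). They were taken by a rule on gene names, and the set was proposed with earlier results of these data known. Every gene name that begins as those of the GABA-A and rho, ionotropic glutamate, metabotropic glutamate, nicotinic acetylcholine or glycine receptor genes do was taken, which gave 65 of the 16842 gene names in the deposited count table. By family they comprise 19 GABA-A and rho subunits, 5 glycine receptor subunits, 4 AMPA, 5 kainate, 7 NMDA and 2 delta subunits, 8 metabotropic glutamate receptors, and 9 neuronal and 5 muscle nicotinic subunits. The name rule also took 1 gene that does not encode a receptor. CHRNA7 and CHRNB3 were not analysed here.

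Treated animals received GS-8873 at 6 mg/kg/day by oral gavage for 13 weeks, and control animals received 0 mg/kg/day in the same way. No transgene, deletion or other agent is named in the labels for either group. The data are 48 polyadenylated RNA libraries, with 4 treated and 4 control libraries of each of 6 tissues: cervical and lumbar dorsal root ganglia (DRG), cervical, thoracic and lumbar spinal cord, and liver. Each group of 4 held 2 males and 2 females. The labels name 10 animals. The 4 control animals gave every tissue, whereas the treated ganglia came from 6 animals, of which 2 gave both ganglion regions. Whole tissue was used, so fewer cells of a type and less RNA per cell cannot be told apart in any comparison below.

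GABA-A and glycine receptors are chloride channels assembled from several subunits, and they mediate fast inhibition in the cord. On the central terminals of sensory neurons GABA-A receptors also underlie presynaptic inhibition. AMPA, kainate and NMDA receptors are cation channels that carry the excitatory signal from sensory fibres to dorsal horn neurons. Metabotropic glutamate receptors are not channels but signal through G proteins. Nicotinic receptors are acetylcholine-gated cation channels, in one set of subunit combinations on neurons and in another at the neuromuscular junction.

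Levels are given as CPM, the counts scaled to a common library size by the trimmed mean of M-values (TMM) over all 48 libraries. To compare different genes, CPM were divided by the exonic length in kilobases that the deposited table lists for each gene. Total counts ran from 35453786 to 53480762 per library. The neuronal marker SNAP25 set 3 cord libraries apart: it stood at 14.1 CPM in cervical control 1, 25.9 CPM in lumbar control 1 and 3.55 CPM in lumbar treated 1, whereas the remaining 21 libraries of the cord held 148.2 CPM or more. In all 3 of these libraries, 25 of the 65 receptor genes lay below the range of the other 21, and 2 (GABRE and CHRNA10) lay above it. MOG, an oligodendrocyte marker, was nearly missing from 2 of them, at 0.219 CPM in lumbar control 1 and 0.0739 CPM in lumbar treated 1. It ranged from 0.256 to 2.15 CPM in ganglia and stood at 268.9 CPM or more in the other 22 cord libraries. Liver libraries held at least 120329 CPM of total counts of the hepatocyte gene ALB. Counts of receptor genes from fits that joined cord regions are given with and without the 3 cord libraries with little SNAP25. Levels in control cord, family shares and the log2 fold changes of single genes between ganglia and cord include the control libraries among those 3. Of the 65 genes, 60 exceeded 1 CPM in at least 1 cord library, 50 in at least 1 ganglion library and 21 in at least 1 liver library. GABRA6, GABRR1 and GABRR2 stayed under 1 CPM in every cord and ganglion library.

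The ganglia were compared with the cord in the 4 control animals, which gave both tissues. Of 63 receptor genes tested, 15 (23.8%) were higher in ganglia, against 18% of all genes, and 21 (33.3%) were lower, against 22.4% of all genes (edgeR quasi-likelihood test on counts summed per animal and tissue, with animal as block, Benjamini-Hochberg adjusted p under 0.05 over all 14958 genes tested). Neuronal nicotinic and kainate subunits supplied most of the higher calls (6 of 9 and 3 of 5). Among the lower calls were 3 of 5 glycine and 4 of 7 NMDA subunits. The median log2 fold change was -0.27 over the receptor genes and -0.06 over all genes. Without the 3 libraries with little SNAP25, 16 were higher and 23 lower, against 27.3% and 24.9% of all genes, and 34 genes passed in both fits. Unadjusted p was under 0.05 for 40 of 63 (63.5%, against 51.7% of all genes), and for 43 of 62 without those libraries (69.4%, against 59.2%). With 1 control animal left out the count fell to 13 in 2 cases (animal 2 or animal 3). The tissues differ in cell makeup, as their markers showed: 10 of 12 sensory neuron markers tested were higher in ganglia and 1 was lower, while 6 of 6 inhibitory interneuron markers and 6 of 6 astrocyte markers were lower. The part of these cell types in the receptor differences was not tested.

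GRIA2 had the highest level of the AMPA genes in both tissues. GRIA2, the subunit that makes the channel impermeable to calcium, reached 14.2 ± 1.95 CPM per kilobase in control ganglia and 25.1 ± 4.66 in control cord (mean ± SD, n = 4 animals, as for all levels per kilobase below). GRIA2 lay between 68.8 and 96.6 CPM in the ganglia of the 4 control animals and between 118.9 and 182.9 CPM in their cords. These ranges did not overlap, and GRIA2 was lower in ganglia by edgeR (log2 fold change -0.85 ± 0.13 SE, adjusted p = 0.00707). GRIA4 had similar levels in the 2 tissues, 12.2 ± 1.78 CPM per kilobase in ganglia and 10.7 ± 4.01 in cord, and was not called different. GRIA1 was at 1.23 ± 0.950 CPM per kilobase in ganglia and 7.89 ± 3.83 in cord, a log2 fold change of -2.69 ± 0.51 (edgeR, adjusted p = 0.0128). GRIA3 stood at 3.07 ± 0.605 CPM per kilobase in ganglia and 6.46 ± 2.79 in cord and was not called.

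Of the 5 kainate genes, 3 were higher in ganglia and none was lower. GRIK2, a pore-forming subunit of low affinity, made up 39.4% of the summed kainate level per kilobase in ganglia and 28.3% in cord. By animal, GRIK2 stood at 46.6, 50.2, 53.2 and 52.1 CPM in control ganglia, against 20.1, 19.5, 16.7 and 13.7 CPM in control cord. The groups were far from overlapping, and the log2 fold change was 1.47 ± 0.15 (edgeR, adjusted p = 0.00223). GRIK1, known from rodents as the main kainate subunit of small sensory neurons, averaged 44.2 ± 11.5 CPM in ganglia and 8.90 ± 4.41 CPM in cord (log2 fold change 2.495 ± 0.45, edgeR adjusted p = 0.0112). GRIK3 was also higher in ganglia, at 8.60 ± 1.22 CPM per kilobase against 3.38 ± 2.37 in cord. GRIK5, an auxiliary high-affinity subunit, had near equal levels of 5.95 ± 0.238 CPM per kilobase in ganglia and 6.81 ± 1.21 in cord.

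Among NMDA receptor genes the obligatory subunit GRIN1 dominated in both tissues, with 77.3% of the family's level per kilobase in ganglia and 69.1% in cord. Its level was 12.8 ± 2.89 CPM per kilobase in ganglia and 15.8 ± 8.32 in cord. The glutamate-binding subunits that partner it were all lower in ganglia. GRIN2B stood at 0.0764 ± 0.0148 CPM per kilobase in ganglia and 0.784 ± 0.302 in cord (log2 fold change -3.28 ± 0.40, edgeR adjusted p = 0.00385). GRIN2A stood at 0.0383 ± 0.0174 in ganglia and 0.501 ± 0.305 in cord (log2 fold change -3.50 ± 0.59, edgeR adjusted p = 0.00928), and GRIN2C and GRIN2D were called lower as well. GRIN3A and GRIN3B, glycine-binding subunits, ran between 1.16 and 1.94 CPM per kilobase in both tissues and were not called. GRID1, a delta subunit that binds cerebellins at synapses, was lower in ganglia as well. It averaged 4.67 ± 0.353 CPM per kilobase in ganglia and 9.56 ± 2.91 in cord.

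Of the 8 metabotropic glutamate receptors, 3 were higher and 3 lower in ganglia. GRM7, GRM4 and GRM8, presynaptic receptors that lower transmitter release, were higher in ganglia: GRM7 had 9.85 ± 1.24 CPM per kilobase in ganglia and 2.36 ± 1.42 in cord, which was 48% of the family in ganglia. The log2 fold changes by edgeR were 2.32 ± 0.59 for GRM7, 2.33 ± 0.57 for GRM4 and 1.02 ± 0.19 for GRM8. GRM3, found on astrocytes as well as neurons, held 52.4% of the family in cord. GRM3 stood at 2.54, 2.90, 1.35 and 1.58 CPM in the ganglia of the 4 control animals, against 22.8, 42.2, 44.3 and 28.3 CPM in their cords. GRM5, a postsynaptic receptor coupled to calcium release, was at 0.150 to 0.289 CPM in ganglia and at least 3.66 CPM in cord. Neither gene overlapped between tissues, and the log2 fold changes were -4.02 ± 0.38 for GRM3 (edgeR adjusted p = 0.00204) and -6.06 ± 0.53 for GRM5 (adjusted p = 0.00178).

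**Figure D1:**
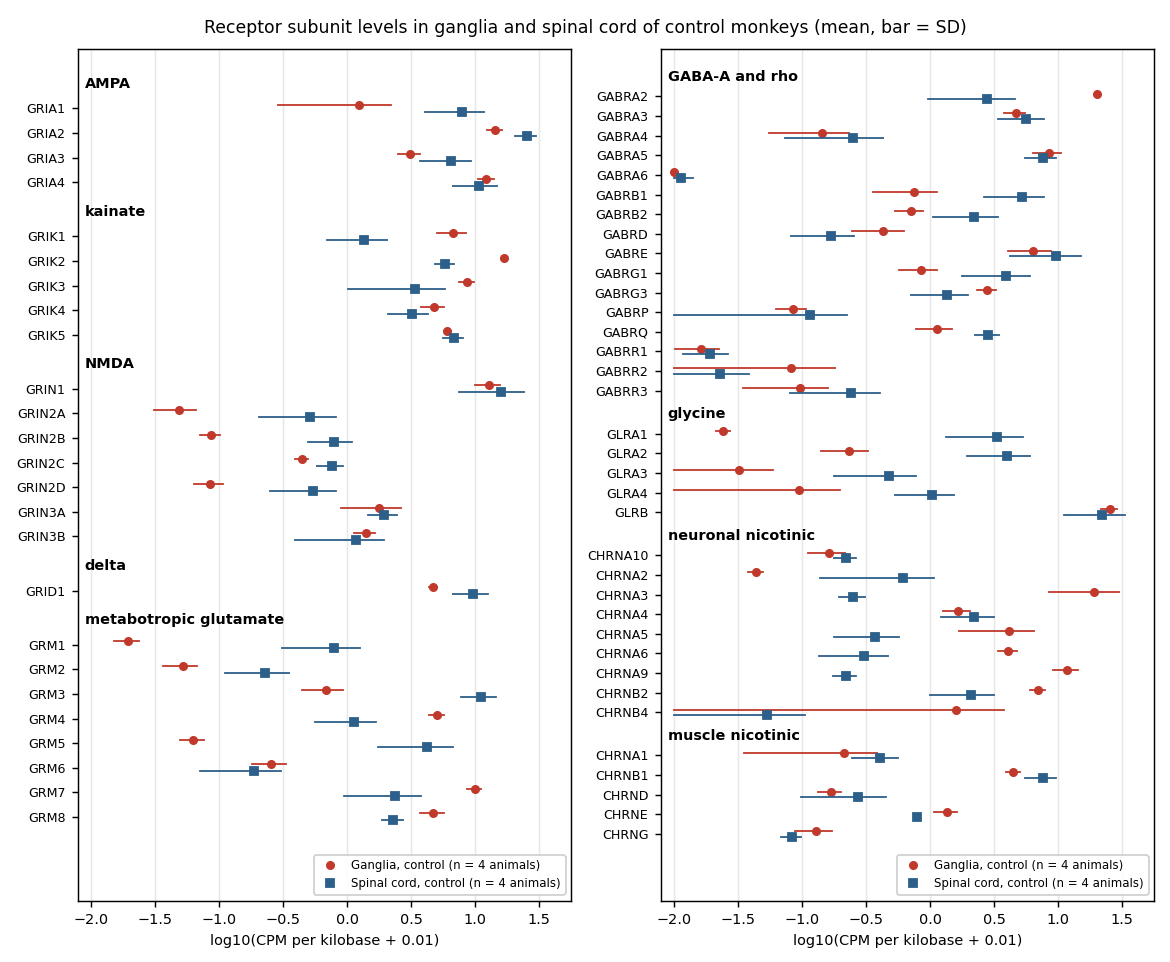
Levels of receptor subunit genes by family in control animals, as log10 of CPM per kilobase plus 0.01. Red circles are ganglia and blue squares are spinal cord (mean over 4 animals), and bars span 1 SD either side. The neuronal nicotinic and kainate genes lie mostly to the right in ganglia, whereas GLRA1, GRM3 and GRM5 lie far to the right in cord.

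Of 17 GABA-A and rho genes tested, 2 were higher and 4 lower in ganglia. GABRA2, an alpha subunit, held 21.4% of the family's summed level per kilobase in ganglia. GABRA2 by animal was at 45.7, 43.3, 41.6 and 40.7 CPM in control ganglia, against 1.64, 4.05, 7.54 and 10.5 CPM in control cord. The groups did not overlap, and GABRA2 was higher in ganglia by a log2 fold change of 3.12 ± 0.57 (edgeR, adjusted p = 0.0114). The beta subunits GABRB1 and GABRB2 were called lower in ganglia: GABRB1 stood at 0.738 ± 0.388 CPM per kilobase in ganglia and 5.17 ± 2.57 in cord, and GABRB2 at 0.694 ± 0.170 in ganglia and 2.20 ± 1.16 in cord. GABRE, the epsilon subunit, stood at 6.36 ± 2.34 CPM per kilobase in ganglia and 9.57 ± 5.36 in cord and was not called. GABRE was highest in the 3 cord libraries with little SNAP25, at 60.0, 82.7 and 94 CPM, against 12.2 to 54.5 CPM in the other 21. GABRA5 overlaps another gene on the opposite strand of chromosome 7, and the counts were not assigned by strand, so its level is uncertain.

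Of 5 glycine receptor genes, 3 were lower in ganglia and none was higher. GLRA1, the alpha subunit of the adult cord, stood at 0.0567, 0.0860, 0.0599 and 0.0594 CPM in the ganglia of the 4 control animals, against 2.42, 16.5, 17.3 and 23.8 CPM in their cords. The lowest cord value came from control animal 1, whose cervical and lumbar cord libraries held little SNAP25, and it was still above every ganglion value. The log2 fold change of GLRA1 was -7.57 ± 0.67 (edgeR, adjusted p = 0.00178). GLRA2, the alpha subunit best known from fetal cord, was called lower too, at 0.223 ± 0.0931 CPM per kilobase in ganglia and 3.99 ± 2.05 in cord. GLRB, the subunit that anchors glycine receptors to the scaffold protein gephyrin, did not follow them: it stood at 25.1 ± 3.75 CPM per kilobase in ganglia and 22.02 ± 11.1 in cord and was not called. GLRB therefore made up 98.7% of the summed glycine receptor level in ganglia and 72.9% in cord. GLRA3 was at 0.0223 ± 0.0267 CPM per kilobase in ganglia and 0.467 ± 0.300 in cord.

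Of 9 neuronal nicotinic genes, 6 were higher in ganglia and 1 was lower. CHRNA3, the alpha subunit of ganglion-type receptors, had 47.5, 55.2, 136.9 and 58.9 CPM in the ganglia of the 4 control animals, against 0.819, 1.16, 0.706 and 1.12 CPM in their cords. CHRNA9, known for its role in cochlear hair cells, had 54.7, 47.9, 44.6 and 30.7 CPM in ganglia, against 0.655, 0.706, 1.03 and 0.796 CPM in cord. Neither gene came near overlap, with log2 fold changes of 6.18 ± 0.45 for CHRNA3 (edgeR adjusted p = 0.00122) and 5.84 ± 0.28 for CHRNA9 (adjusted p = 0.000541). CHRNA5, CHRNA6, CHRNB2 and CHRNB4 were called higher as well, by log2 fold changes from 1.96 (CHRNB2) to 4.77 (CHRNB4). CHRNB4 reached 7.22 CPM in the ganglia of control animal 3, against 0.405 to 1.02 CPM in the other 3 control animals. The same animal also had the highest CHRNA3 and CHRNA5 values (19.2 CPM for CHRNA5, against 5.93 to 8.19 CPM in the others). These 3 genes are neighbours on chromosome 7: CHRNA3 and CHRNA5 overlap by 1006 bases on opposite strands and are uncertain for that reason, and CHRNB4 lies 4082 bases from CHRNA3. CHRNA4, which forms the main high-affinity nicotinic receptor of the brain with CHRNB2, stood at 1.65 ± 0.401 CPM per kilobase in ganglia and 2.17 ± 0.958 in cord and was not called.

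CHRNB1, the beta subunit of the muscle receptor, was the leading gene of its family in both tissues, at 4.43 ± 0.545 CPM per kilobase in ganglia and 7.57 ± 2.08 in cord. It was called lower in ganglia, whereas CHRNE, the adult epsilon subunit, was called higher at 1.34 ± 0.274 CPM per kilobase in ganglia and 0.777 ± 0.0456 in cord. CHRND and CHRNG overlap by 563 bases on the same strand of chromosome 12 and are uncertain. The 7 measured skeletal muscle markers summed to between 6.26 and 34.4 CPM of total counts over all cord libraries, and to between 4.58 and 595.1 CPM in ganglia.

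Regions of the cord were then compared within the 8 animals. GRIK2, GRIK3 and GRIA2 were lower in thoracic than in cervical cord and higher in lumbar than in thoracic cord. GRIK2 ranged from 9.75 to 20.3 CPM in the 8 cervical libraries, from 3.86 to 13.2 CPM in the 8 thoracic libraries and from 16.2 to 43.5 CPM in the 8 lumbar libraries. Every animal had its lowest GRIK2 value in thoracic cord. The highest lumbar value of each of these genes came from a library with little SNAP25. In lumbar control 1 and lumbar treated 1, GRIK3 stood at 49.04 and 51.4 CPM and GRIA2 at 286.3 and 335 CPM. The cord libraries with more SNAP25 reached at most 22.7 CPM for GRIK3 and 200.6 CPM for GRIA2. GRIK2 stood at 35.04 and 43.5 CPM in those 2 lumbar libraries, against at most 37.2 CPM. Between thoracic and cervical cord 5 receptor genes of 61 passed, 2 higher (3.28%) and 3 lower (4.92%), against 22.9% and 17.3% of all genes (edgeR with animal as block). Those lower were GRIA2 (log2 fold change -0.84 ± 0.18, adjusted p = 0.0017), GRIK2 (-1 ± 0.22, adjusted p = 0.00212) and GRIK3 (-1.71 ± 0.43, adjusted p = 0.00547). CHRNB1 (1.01 ± 0.17, adjusted p = 0.000583) and CHRNE (0.80 ± 0.20, adjusted p = 0.00493) were higher in thoracic cord. CHRNB1 ran from 9.63 to 28.6 CPM in cervical, from 14.9 to 52.5 CPM in thoracic and from 10.01 to 33.7 CPM in lumbar libraries.

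Lumbar against thoracic cord gave 11 receptor genes of 61, 9 higher (14.8%) and 2 lower (3.28%), against 24.1% and 26.4% of all genes. The first 3 were again GRIK2 (log2 fold change 1.89 ± 0.22, edgeR adjusted p = 2.93e-05), GRIA2 (1.38 ± 0.18, adjusted p = 4.97e-05) and GRIK3 (2.85 ± 0.45, adjusted p = 0.000163). GABRE, GRM8, GABRA3, CHRNG, GABRR3 and CHRNA5 were also higher, and CHRNB1 (-1.01 ± 0.17, adjusted p = 0.000247) and GABRD (-1.37 ± 0.48, adjusted p = 0.0251) were lower in lumbar cord. Some of these had few counts: CHRNG reached at most 0.407 CPM in cord, and the cord medians of GABRR3, GABRD and CHRNA5 were 0.111, 0.412 and 0.657 CPM. Between lumbar and cervical cord none of the 61 passed by edgeR, against 0.0347% of all genes higher and 0.0208% lower. Of the 61, 5 had an unadjusted p under 0.05 (8.2%, against 17.7% of all genes), and DESeq2 called 1, GRIK2, whose edgeR log2 fold change was 0.89 ± 0.22 (adjusted p = 0.0795).

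These counts changed when the 3 libraries with little SNAP25 were left out. Without them, 26 receptor genes differed between thoracic and cervical cord, 3 higher (4.92%) and 23 lower (37.7%), against 24.9% and 23.2% of all genes. Lumbar against thoracic cord then gave 39, with 37 higher (60.7%) and 2 lower (3.28%), against 24.8% and 26% of all genes, and the median log2 fold change over the 61 genes was 1.09 in place of 0.41. An unadjusted p under 0.05 was found for 7 of 61 (11.5%) between thoracic and cervical cord with all libraries, against 48.8% of all genes, and for 30 (49.2%) without the 3, against 55.4%. Between lumbar and thoracic cord it was 14 (23%) with all libraries, against 56.5% of all genes, and 44 (72.1%) without the 3, against 57.2%. All 5 genes of the first comparison and 9 of the 11 of the second also passed in these fits. GABRR3 and CHRNA5 did not pass between lumbar and thoracic cord without the 3 libraries (edgeR adjusted p = 0.107 and 0.071). Genes called lower in thoracic than in cervical cord and higher in lumbar than in thoracic cord in the reduced fits included GRIN1 (-1.23 ± 0.32 and 1.86 ± 0.34) and GLRB (-0.91 ± 0.24 and 1.02 ± 0.26). GRM5 followed the same course (-1.65 ± 0.39 and 2.31 ± 0.41). Between lumbar and cervical cord the edgeR count stayed at 0, against 0.0415% of all genes in each direction, with 11 at an unadjusted p under 0.05 (18%, against 13.3% of all genes). Leaving out control animal 1, which gave 2 of the 3 libraries, raised the counts to 10 and 19. In the fits with all libraries, lumbar cord was lower than thoracic cord in 5 of 6 oligodendrocyte markers and higher in 6 of 9 Schwann cell and satellite glia markers, and 1 of 10 general neuron markers was higher. Their part in the receptor differences was not tested.

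**Figure D2:**
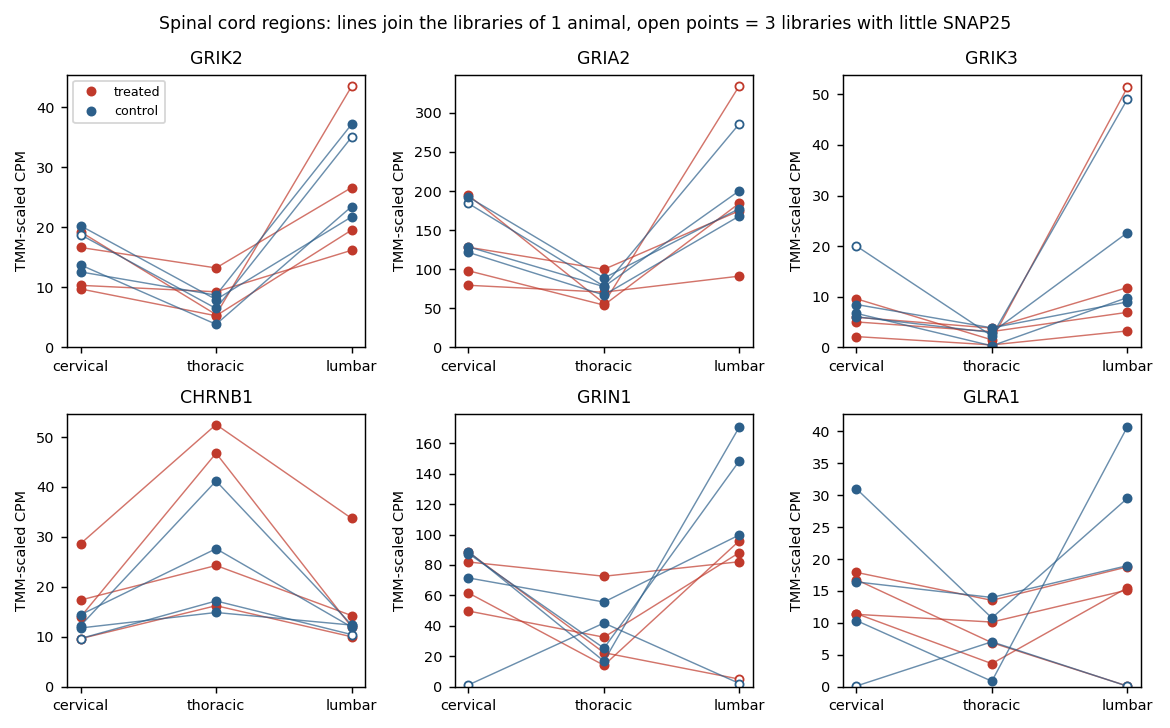
TMM-scaled CPM of 6 receptor genes in cervical, thoracic and lumbar spinal cord. Each line joins the 3 libraries of 1 animal (red, treated; blue, control), and open points mark the 3 libraries with little SNAP25. GRIK2 was lowest in thoracic cord in every animal.

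Of 54 receptor genes tested, none passed between lumbar and cervical ganglia, against 0.0847% of all genes higher and 0.12% lower (limma with animal as random block). Unadjusted p was under 0.05 for 5 of them (9.26%, against 13.7% of all genes). GABRD, a subunit of extrasynaptic GABA-A receptors, came nearest (log2 fold change -2.08 ± 0.47, adjusted p = 0.0774). GABRD reached 27.3 CPM in cervical treated 4, against 0.553 to 5.06 CPM in the other 7 cervical ganglion libraries and 0.0855 to 1.70 CPM in the 8 lumbar ones. That library also had 23.01% of its counts on mitochondrial genes, against 6.97% to 13.4% in the other 15 ganglion libraries, and the part of this in its values was not tested. It had the highest CHRNB1 value in ganglia as well (40.97 CPM, against 8.05 to 13.3 CPM in the other 15).

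Treatment was tested first in each ganglion region. In lumbar ganglia 4 receptor genes fell, among them the NMDA subunit GRIN1, the glycine subunit GLRB and the nicotinic subunit CHRNA4. That was 4 of 56 tested (7.14%), against 3.65% of all 14267 genes, and none rose, against 0.638% of all genes (edgeR). At an unadjusted p under 0.05 there were 7 (12.5%), against 22.6% of all genes. The median log2 fold change over the receptor genes, 0.03, was near that of all genes, 0.05.

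CHRNA4, on chromosome 10 at 95533849 to 95549652 of the Macaca_fascicularis 5.0 build, stood at 0.927, 1.38, 1.39 and 1.65 CPM in treated lumbar ganglia, against 4.77, 3.81, 4.19 and 4.08 CPM in control lumbar ganglia. The groups did not overlap, and CHRNA4 fell by 1.66 on the log2 scale (SE 0.23, edgeR adjusted p = 0.0160). GRIN1, on chromosome 15 at 1109643 to 1139330, stood at 15.9, 21.7, 29.1 and 27.3 CPM in treated lumbar ganglia, against 70.5, 39.1, 62.2 and 63.5 CPM in control ones. All 4 treated values lay below the lowest control value, and the log2 fold change was -1.35 ± 0.21 (edgeR adjusted p = 0.0175). GLRB, on chromosome 5 at 156392141 to 156484182, stood at 41.4, 42.1, 44.3 and 51.9 CPM in treated lumbar ganglia, against 87.1, 84.5, 70.9 and 73.0 CPM in control ones. The groups were again separate, with a log2 fold change of -0.80 ± 0.11 (edgeR adjusted p = 0.0172).

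The calls depended on single libraries. Leaving out 1 library at a time gave 0 to 5 called receptor genes: none without control 3, and 1 without treated 3, control 1 or control 2. The adjusted p ranged over 15 alternatives from 6.38e-10 to 0.0579 for CHRNA4, from 1.33e-07 to 0.0549 for GRIN1 and from 7.24e-07 to 0.0601 for GLRB, and the direction held in all of them. GRIN3B came next in lumbar ganglia, at 0.228, 1.10, 0.901 and 1.33 CPM in treated and 3.11, 2.18, 2.31 and 3.88 CPM in control libraries (log2 fold change -1.73 ± 0.47, edgeR adjusted p = 0.0829).

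Most general neuron markers moved in the same direction in these libraries. The log2 fold changes of SYT1 (-0.005), GAP43 (-0.04) and ELAVL4 (0.07) were small. The 10 markers summed to between 5156 and 7717 CPM of total counts in treated and between 9704 and 11160 CPM in control lumbar ganglia. Of the 10, 4 fell (SNAP25, SYN1, NSF and UCHL1), and the median log2 fold change of the 10 was -0.75. SNAP25 changed by -1.21 ± 0.15 (edgeR adjusted p = 0.0154). Sensory neuron markers summed to between 2440.5 and 6052 CPM in treated and between 4123 and 5018 CPM in control lumbar ganglia, and none of 12 passed. None of the 10 neuron markers was listed at 0 in ganglia. Their part in the receptor differences was not tested.

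In cervical ganglia none of 57 receptor genes passed by edgeR, as was true of all 14173 genes tested (0%). Unadjusted p was under 0.05 for 4 of them (7.02%), against 7.35% of all genes, among them GRIN1, CHRNA4 and CHRNA3, and DESeq2 called GRIN1 and CHRNA4. GRIN1 stood at 36.4, 24.9, 18.9 and 19.5 CPM in treated cervical ganglia, against 73.5, 57.6, 46.6 and 23.9 CPM in control ones. CHRNA4 stood at 2.35, 0.751, 0.634 and 0.988 CPM in treated cervical ganglia, against 5.65, 5.44, 4.14 and 1.54 CPM in control ones. In both genes the only control library within the treated range was control 4, which was also the control library lowest in SNAP25 (692.3 CPM, against 721.1 to 843.2 CPM in the 4 treated and 1397 to 1727 CPM in the other 3 control cervical libraries). The log2 fold changes were -0.95 ± 0.25 for GRIN1 and -1.78 ± 0.47 for CHRNA4.

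**Figure D3:**
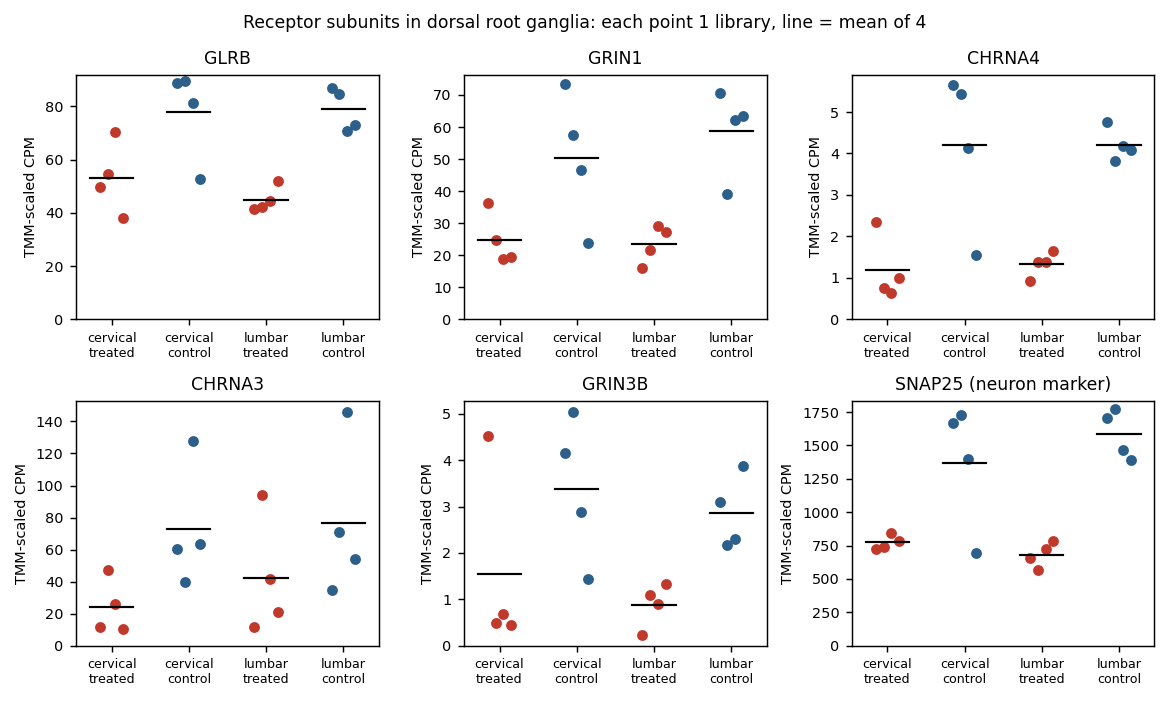
TMM-scaled CPM of 5 receptor genes (GLRB, GRIN1, CHRNA4, CHRNA3 and GRIN3B) and of the neuron marker SNAP25 in cervical and lumbar ganglia (red, treated; blue, control; each point 1 library, line at the mean of 4). In lumbar ganglia the treated points of GLRB, GRIN1 and CHRNA4 lie below all control points (as do those of GRIN3B), whereas those of CHRNA3 overlap.

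With both ganglion regions fitted together and animal as random block, none of 60 receptor genes passed, against 0.0138% of all genes higher and 0.929% lower (limma). Of the 60, 11 had an unadjusted p under 0.05 (18.3%), against 11.5% of all genes. Log2 fold changes were positive for 26 and negative for 34, with a median of -0.09 against 0.05 over all genes. Among the genes of smallest p were GLRB (-0.69 ± 0.19, adjusted p = 0.104), CHRNA4 (-1.65 ± 0.48, adjusted p = 0.128), CHRNA3 (-1.52 ± 0.52, adjusted p = 0.22) and GRIN1 (-1.11 ± 0.39, adjusted p = 0.236). DESeq2 on counts summed per animal called 4, among them GLRB, CHRNA4 and GRIN1. The limma count was 2 without control animal 4, 4 without treated animal 5 and 2 without treated animal 6. CHRNA3 stood at 11.9, 47.5, 26.1 and 10.7 CPM in treated cervical ganglia, against 60.5, 39.7, 127.8 and 63.6 CPM in control ones, and at 11.7, 94.1, 41.4 and 20.9 CPM in treated lumbar ganglia, against 34.5, 70.8, 146.1 and 54.2 CPM in control ones. The groups overlapped in both regions. No receptor gene passed for a difference in treatment effect between the ganglion regions, as was true of all genes (0%, limma). Unadjusted p was under 0.05 for 4 of 60, against 2.86% of all genes.

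The fitted changes are given by family as medians, with no test between families. All 5 kainate genes were tested and none passed, with a median log2 fold change of 0.04 in the ganglia together. The 4 AMPA genes had a median of 0.13, the 7 NMDA genes -1.02, the 9 neuronal nicotinic genes -0.70 and the 17 GABA-A and rho genes tested -0.27. The NMDA median includes GRIN2A, GRIN2B and GRIN2D, which stayed under 1 CPM in every ganglion library. In lumbar ganglia alone the medians were 0.18 for the 5 kainate genes, -0.02 for the 4 AMPA genes, -0.40 for 6 NMDA genes (3 positive and 3 negative), -0.33 for the 9 neuronal nicotinic genes and -0.01 for the 17 GABA-A and rho genes. GABRA2 averaged 32.4 ± 7.21 CPM in treated and 39.5 ± 7.06 CPM in control lumbar ganglia (SD, n = 4 libraries each). CHRNA9 averaged 28.4 ± 9.81 CPM in treated and 46.3 ± 8.30 CPM in control lumbar ganglia. Neither was called.

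Genes that act with these receptors were described from 3 further lists. In lumbar ganglia 0.638% of all genes rose and 3.65% fell. Of 34 tested genes for receptor scaffolds and auxiliary subunits, 3 rose and 1 fell in lumbar ganglia: DLG3 (0.49), CACNG5 (2.41) and CBLN2 (0.72) were higher, and DLG4, the main scaffold of NMDA receptors, was lower (-0.61, edgeR adjusted p = 0.0323). The median of that list was -0.11. Of 21 tested genes of transmitter synthesis and transport, CHAT, the enzyme that makes acetylcholine, fell (-1.78, edgeR adjusted p = 0.0478), and so did the vesicular glutamate transporter SLC17A7 (-1.25, adjusted p = 0.0361). CHAT levels were low, at 0.309, 0.225, 0.589 and 0.374 CPM in treated and 1.19, 1.72, 1.30 and 0.8705 CPM in control lumbar ganglia. None of 6 genes for the GABA-B receptor and chloride carriers passed, with a median of -0.19. No gene of the 3 lists passed in the ganglia together (limma) or in the cord summed over regions (edgeR).

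In the spinal cord no receptor gene passed for treatment, and neither did any other gene (0% in each fit, edgeR). Unadjusted p was under 0.05 for 5 of 61 receptor genes in cervical cord (8.2%, against 9.53% of all genes), none of 59 in thoracic cord (against 2.33%) and 1 of 61 in lumbar cord (1.64%, against 1.74%). With counts summed over the regions of each animal it was 2 of 61 (3.28%, against 3.49%), and DESeq2 called 1. The median log2 fold change over the receptor genes in the summed counts was 0.00, against 0.01 over all genes. In the summed cord the log2 fold changes were -0.25 ± 0.35 (GLRB), -0.15 ± 0.52 (GRIN1) and -0.28 ± 0.41 (CHRNA4). Without the 3 libraries with little SNAP25 these were -0.35 ± 0.19 (GLRB), -0.23 ± 0.26 (GRIN1) and -0.34 ± 0.20 (CHRNA4). Again none of the 61 passed (edgeR), and 2 had an unadjusted p under 0.05 (3.28%, against 4.4% of all genes).

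GABRR3, a rho subunit best known from the retina, was the gene DESeq2 called in the summed cord (adjusted p = 0.000133, against 0.858 by edgeR and up to 1 over the alternatives). In cervical cord it stood at 0.190, 0.0852, 0 and 0 CPM in treated libraries, against 1.31, 0.992, 0.136 and 1.28 CPM in control libraries. In thoracic cord it had no count in any treated library, against 0.0456, 1.08, 0.0602 and 0.921 CPM in control libraries. In lumbar cord it stood at 0.351, 0.139, 0.0183 and 0 CPM in treated libraries, against 4.75, 1.52, 0.0773 and 1.62 CPM in control libraries. Control animal 3 lay within the treated range in cervical and lumbar cord, so the groups overlapped there. The highest value, in lumbar control 1, was 260 counts and came from a library with little SNAP25.

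**Figure D4:**
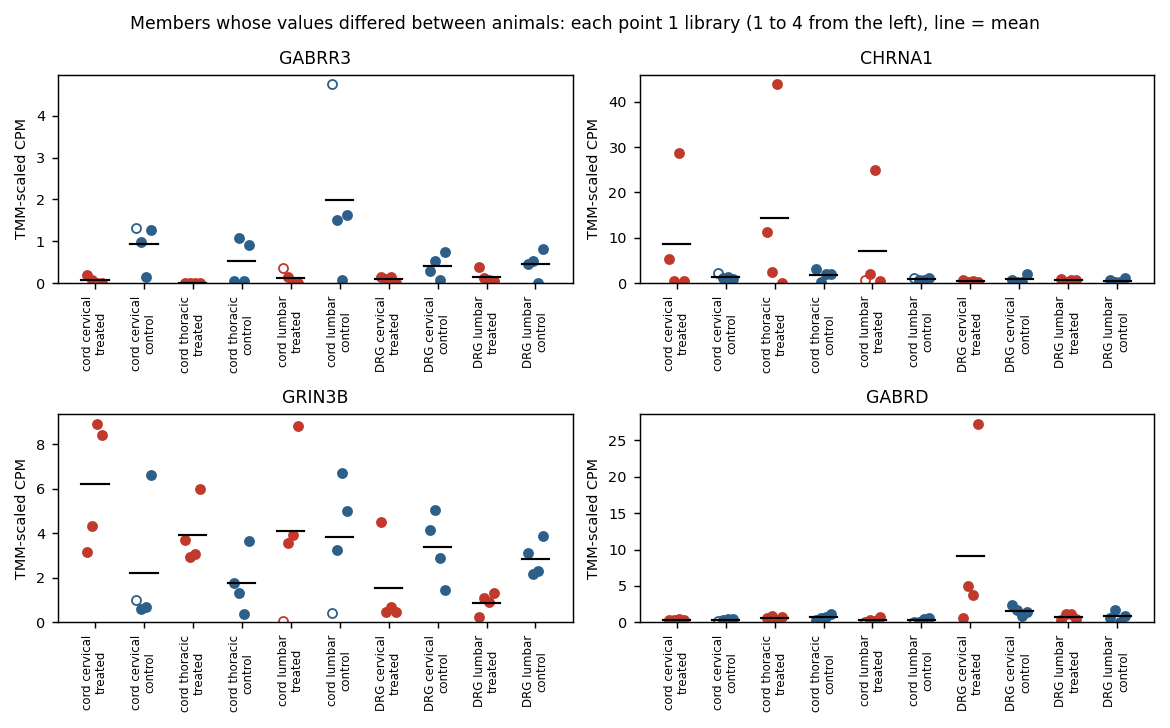
TMM-scaled CPM of GABRR3, CHRNA1, GRIN3B and GABRD in cord and ganglia by region and group (red, treated; blue, control; each point 1 library, from 1 to 4 left to right, line at the mean). Open points are the 3 cord libraries with little SNAP25. Single animals stand out: CHRNA1 reached 28.7, 43.8 and 24.9 CPM in the 3 cord regions of 1 treated animal.

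GRIN3B, an NMDA subunit of motor neurons, stood at 3.17, 4.32, 8.93 and 8.42 CPM in treated cervical cord, against 1.03, 0.595, 0.701 and 6.64 CPM in control cervical cord. The groups overlapped through control 4, and the summed-cord log2 fold change was 0.89 ± 0.35 (edgeR adjusted p = 0.858). The motor neuron marker CHAT stood at 2.09, 5.41, 7.78 and 4.85 CPM in treated cervical cord, against 0.152, 0.331, 0.350 and 17.7 CPM in control. In lumbar cord CHAT stood at 0, 0.470, 4.86 and 4.48 CPM in treated libraries, against 0, 8.29, 14.7 and 12.2 CPM in control. The part of motor neuron content in the GRIN3B values was not tested. In the ganglia the GRIN3B values ran the other way, as given above for lumbar ganglia. The difference between the treatment effects in ganglia and cord was tested directly with limma over all 40 libraries. None of 63 receptor genes passed, against 0.113% of all genes higher and 0.212% lower, and 5 had an unadjusted p under 0.05 (7.94%, against 9.97% of all genes). GRIN3B came nearest, with a difference of -2.76 ± 0.99 on the log2 scale (adjusted p = 0.269). Without the 3 libraries with little SNAP25, GRIN3B passed (-2.73 ± 0.66, adjusted p = 0.0366), 1 of 64 lower (1.56%), against 0.594% of all genes. None was higher in that fit, against 0.251% of all genes, and 9 had an unadjusted p under 0.05 (14.1%, against 12.4%). It passed in 3 of 15 alternatives, with adjusted p from 0.0209 to 0.672. CHRNA4, GRIN1 and GLRB did not pass in either fit, so a treatment effect on them that differs between ganglia and cord was not shown.

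CHRNA1, the acetylcholine-binding subunit of the muscle receptor, was highest in 1 treated animal in all 3 cord regions. It stood at 5.24, 0.426, 28.7 and 0.386 CPM in treated cervical cord, at 11.4, 2.49, 43.8 and 0 CPM in treated thoracic cord and at 0.647, 2.09, 24.9 and 0.560 CPM in treated lumbar cord. Control cord libraries ran from 0.308 to 3.12 CPM. The highest values of the 3 regions belong to the same animal, treated 3. Treated 1 also lay above the control range in cervical and thoracic cord. The summed-cord log2 fold change of CHRNA1 was 2.48 ± 1.19 (edgeR adjusted p = 0.858). No receptor gene passed for a treatment effect that differed between cord regions, as was true of all genes (0%, limma), and none of 61 had an unadjusted p under 0.05, against 0.726% of all genes. Without the 3 libraries 2 did (3.28%, against 1.63%).

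**Figure D5:**
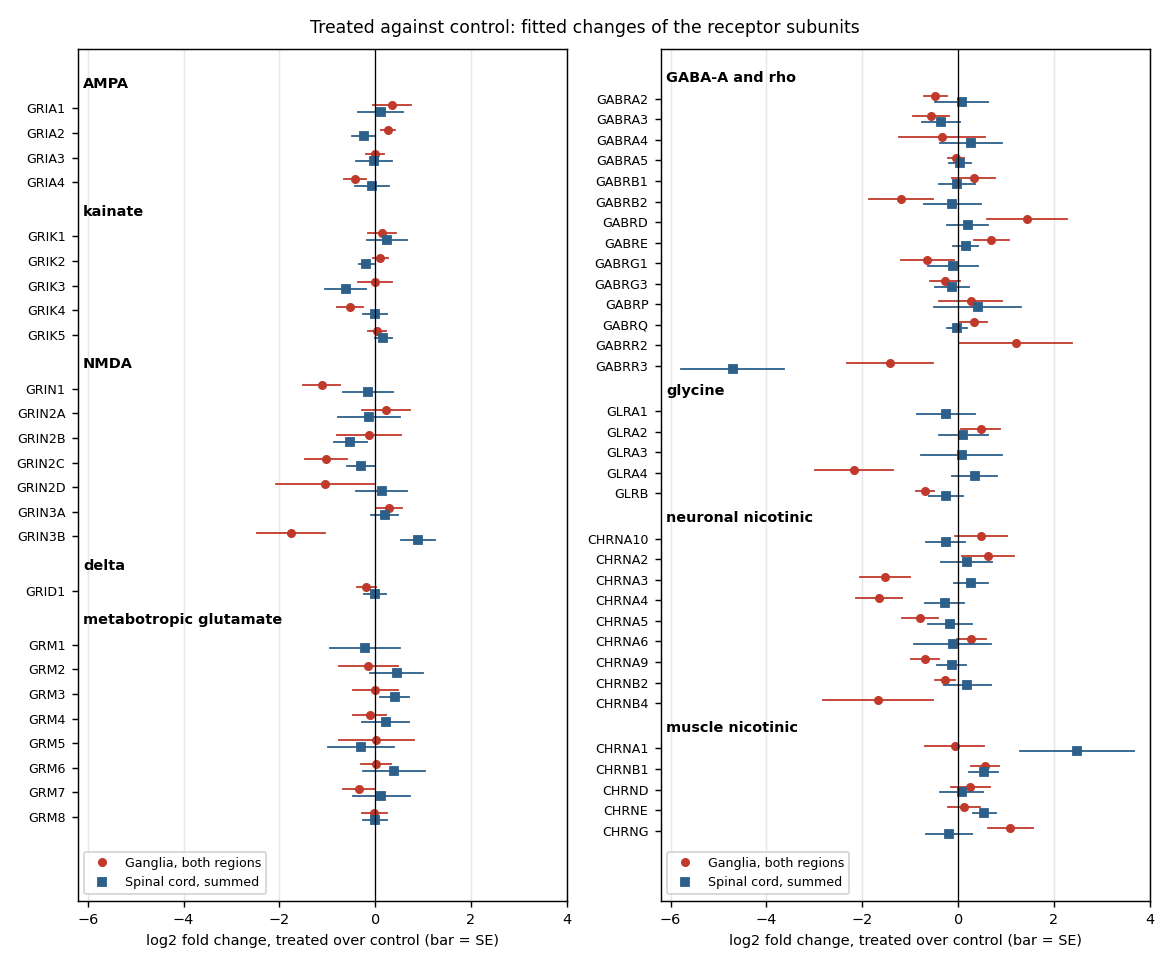
Fitted log2 fold changes of receptor genes, treated over control, in both ganglion regions together (red circles, limma) and in spinal cord summed over regions (blue squares, edgeR), with bars of 1 SE either side. The largest negative value is that of GABRR3 in cord, -4.71, and none of the values shown passed an adjusted p of 0.05.

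Liver held few of these genes above 1 CPM. CHRNA2, a nicotinic alpha subunit, averaged 81.6 ± 28.1 CPM in treated and 55.8 ± 47.4 CPM in control livers, and the metabotropic receptor GRM2 54.2 ± 12.4 CPM in treated and 39.7 ± 8.55 CPM in control livers (SD, n = 4 each). GRIK5, GABRA5 and CHRNB1 averaged between 11.3 and 18.03 CPM in both groups. None of 20 receptor genes tested passed, as was true of all genes (0%, edgeR). CHRNA5 alone had an unadjusted p under 0.05, against 8.32% of all genes, and GRM2 had a log2 fold change of 0.44 ± 0.20 (adjusted p = 0.609).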

How the data were processed

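RNA was sequenced from 48 libraries of 10 animals, with tissue kept in RNAlater and stranded Illumina TruSeq mRNA libraries, per the labels. The authors deposited whole-number counts of each gene, made by featureCounts 1.4.6-p1 on Ensembl release 94 of Macaca_fascicularis 5.0, per the file headers. The submitters' processing notes also name the aligner STAR, version 2.5.3a. The header's command sets neither pairing nor strand, and how reads over 2 overlapping genes were assigned was not tested, so the direction of any error in such genes is unknown. Coordinates are those of the deposited table, and 64 of the 65 symbols matched the RefSeq gene table of another assembly. The receptor genes, marker lists and gene lists were chosen with earlier results of these data known.

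Each tissue was fitted alone in edgeR 4.0.16 (R 4.3.3; TMM, filterByExpr, robust quasi-likelihood test, sex as covariate). The ganglia together, their regions, interactions and the difference between ganglia and cord used limma 3.58.1 voom with animal as random block. Cord regions, and ganglia against cord, used edgeR with animal as fixed block. Tests are two-sided, with Benjamini-Hochberg adjustment over all genes and a threshold of 0.05. Levels are TMM CPM over all 48 libraries. Each fit was tested on simulated counts. Alternatives were DESeq2 1.42.0, limma voom, median-ratio size factors, other filters, no sex term, the replicate block, other library sets and leaving out libraries or animals. Leaving out the 3 cord libraries with little SNAP25 was chosen after seeing the data.

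In each comparison up to 15 receptor genes past the threshold were named, or the 5 with the smallest p at a mean of at least 1 CPM, with leading genes of each family and a fixed set of well-known subunits. Genes whose values stood apart in single animals were added after their values were seen. No 2 libraries of a group agreed within sampling noise (lowest chi-square per degree of freedom 31.6). Same-numbered control and treated libraries deviated together in lumbar cord in all 4 pairs (correlations 0.907, 0.163, 0.75 and 0.477), which meets the rule used for pairing, but not in the other tissues. Replicates are separate animals. Some receptor genes are counted in the totals but not reported here.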

Additional observations from a re-analysis of the deposited data

Results flagged for a closer look

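Among 135 groups of 4 libraries reaching 1 CPM, examined for the genes described library by library, 9 held a value far from the other 3 of its group by Dixon's criterion at the 95% level. Chance alone gives about 1 in 20 groups, a rate that does not apply here because some of the genes were chosen after their values were seen. In treated spinal cord, GRIN1 was low at 5.01 CPM in lumbar treated 1, a library with little SNAP25, and CHRNA1 was high at 24.9 CPM in lumbar treated 3. In control spinal cord, GRM3 was low at 22.2 CPM in thoracic control 4 and GRIN3B was high at 6.64 CPM in cervical control 4.

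In cervical ganglia, treated 4 was high in both GABRD (27.3 CPM) and CHRNB1 (40.97 CPM), GRIN3B was high at 4.53 CPM in treated 1, and GRIK2 was high at 59.5 CPM in control 3. In lumbar ganglia, GRIK3 was low at 31.5 CPM in treated 1.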

How the results depend on the processing

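Of 218 counts of called receptor genes under an alternative, 191 stayed within 1.5 times the count reported. Of 1266 values of single genes under an alternative, none reversed, 44 lost and 21 gained the threshold. DESeq2 called 2 genes in cervical ganglia, 4 in both ganglion regions on sums per animal, 1 each in cervical, lumbar and summed cord, and 1 between lumbar and cervical cord, where the reported test called 0. Leaving out single libraries gave 0 to 5 in lumbar ganglia, and leaving out single animals gave 0 to 4 in both ganglion regions, 13 to 41 between ganglia and cord, 5 to 10 between thoracic and cervical cord, 8 to 19 between lumbar and thoracic cord and 0 to 1 for the difference in treatment effect. Control animals only gave 3 between thoracic and cervical cord and 5 between lumbar and thoracic cord. Without libraries with almost no MOG these counts were 16 and 28, without those with little SNAP25 they were 26 and 39, and each of these settings gave 1 for the difference in treatment effect. Cervical ganglia against cervical cord alone gave 23. The cause of these shifts was not tested beyond the smaller number of libraries. With the replicate block the lumbar ganglia gave 3 calls in place of 4, and no other call of treatment changed under the block. Without the animal term GABRR3 (adjusted p = 0.0609) and CHRNA5 (0.0545) missed the threshold between lumbar and thoracic cord. Groups of 4 and genes near 1 CPM limit what could be detected.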
